A study of Mus musculus with 36 samples.

Results

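Transcripts for the subunits of the constitutive proteasome and its regulators were followed in mouse liver after lipopolysaccharide (LPS), the bacterial envelope molecule used to provoke an acute inflammatory response. The members were all protein-coding genes named Psma, Psmb, Psmc, Psmd or Psme plus a number, other than the inducible catalytic subunits Psmb8, Psmb9 and Psmb10. There were 40 such genes among 34829 in the table, and 39 reached the mean signal of 5 required for a test, among 8702 tested genes. They fell into 8 genes of the 20S alpha ring, 8 of the beta ring, 6 ATPases and 11 non-ATPase subunits of the 19S particle, 3 assembly chaperones of the 19S base and 4 activators. Liver came from mice of 1 strain, C57BL6/J, held at an ambient 22 °C or 30 °C, and 36 samples were taken at 0, 4, 12 or 24 h after LPS. The 22 °C groups held 4, 4, 5 and 5 samples in that order, and the 30 °C groups held 5, 4, 4 and 5. The labels give no genotype, sex, age or LPS dose, and no group without LPS at the later times. Nor do they tie each sample to an animal of its own, and the tests below reflect the scatter among the samples as given, which may be technical. Time of day, handling and feeding cannot be told apart from LPS in any change since 0 h.

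The proteasome is the barrel-shaped protease that degrades ubiquitin-tagged proteins. Outer alpha rings gate the entry, inner beta rings carry the proteolytic sites, and a 19S particle of ATPases and lid subunits at the end of the barrel binds, unfolds and feeds the substrate. Under interferon, the catalytic subunits Psmb5, Psmb6 and Psmb7 can be replaced by Psmb8, Psmb9 and Psmb10, and the activator made of Psme1 and Psme2 can bind in place of the 19S particle, which changes the peptides offered to class I antigen presentation.

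The libraries held 557000 to 2744000 estimated reads (median 1009000), and 3 reads were worth 1.33 to 5.05 units of the deposited signal. Depth moved with time: the 22 °C libraries held 717000 to 985000 estimated reads at 0 h and 1176000 to 1470000 at 4 h. The 30 °C libraries held 557000 to 830000 at 0 h and 1033000 to 2744000 at 4 h. Depth also differed between temperatures at 24 h, with 779000 to 931000 at 22 °C and 710000 to 2295000 at 30 °C. The part of depth in the results was not tested apart from a fit with depth as a covariate. Replicate 4 of the 30 °C 4 h livers stood apart. Its summed signal was 1717984, against 828054 to 1362724 in the other 35 libraries, and 55 genes with a signal of at least 1000 there and over 5 times that of any other library held 28.1% of it. The other libraries had 0 such genes. Some results that use this library are also given without it, and the others include it. All 8 hepatocyte markers were detected in every group. Their summed signal ran from 28360 to 37700 at 0 h and from 14880 to 23590 at 12 h at 22 °C, and from 26430 to 42940 and from 12330 to 15770 at 30 °C. Ttr weighs most in this sum, with a mean signal of 12901 over all libraries against 2925 for Serpina1c, the next. The sum of 11 neutrophil and monocyte markers ran from 7.88 to 21.2 at 0 h and from 200.5 to 326.7 at 12 h at 22 °C, and from 9.90 to 21.1 and from 309.1 to 527.5 at 30 °C. S100a8 and S100a9 weigh most in this sum, with mean signals of 94.8 and 54.7 over all libraries. Ly6g, Mpo, Camp, Ly6c2, Csf3r and Retnlg lay below the mean of 5 required for a test. Elane, the neutrophil elastase gene among them, was listed at 0 in every library. The sum of 10 Kupffer cell and macrophage markers ran from 223.0 to 310.4 at 0 h and from 77.1 to 99.1 at 12 h at 22 °C. The part of these cell markers in the results below was not tested, and in whole liver a change in the number of cells of a type cannot be told apart from a change in RNA per cell.

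Differences are on the log2(signal + 1) scale, given ± SE, and came from 1 limma fit of all 8702 genes with Benjamini-Hochberg adjustment within each comparison at 0.05. A call means that a gene passed this threshold. Over all comparisons 118 calls fell on members, and 60 of them held under every other setting tried and with each library left out in turn. Such calls also held without the replicate 4 that stood apart. The settings that ended any other call are given with it. Reads cover 3′ ends alone, so levels are compared between samples and never between genes.

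At 22 °C, 10 of 39 members rose at 4 h, against 15.8% of all tested genes, and 2 fell, against 13.6%. At 12 h 16 rose (20.7% of all genes) and 0 fell (20.6%), and at 24 h 14 rose (19%) and 0 fell (18%). At 30 °C, 11 rose (17.8%) and 3 fell (14.6%) at 4 h, 16 rose (19.3%) and 0 fell (18.9%) at 12 h, and 8 rose (15.3%) and 2 fell (14.4%) at 24 h. In the 3 comparisons with 0 falls, 0 members had a negative difference at an unadjusted p below 0.05. Without the replicate 4 that stood apart, 9 rose and 3 fell at 4 h at 30 °C. The median member differed from 0 h by 0.10, 0.54 and 0.54 at 22 °C and by 0.32, 0.47 and 0.30 at 30 °C, whereas the median of all tested genes lay between -0.10 and 0.03 in these comparisons. Members called at one temperature were then looked for at the other, which has its own 0 h libraries. At 4 h the 10 called in the same direction at both made up 83.3% of those at 22 °C and 71.4% of those at 30 °C, against 74.2% and 67.1% for all tested genes. At 12 h 12 were shared, 75% of each list (68.7% and 74.3% for all genes), and at 24 h 4 were shared, 28.6% and 40% of the lists (47.9% and 59.8%). Of the 39 members, 25 had their highest group mean at the same time at both temperatures. No member was called in all 6 comparisons with 0 h, 5 were called in 5 of them (Psma2, Psma5, Psmc2, Psmd10 and Psme1), and 9 in none. Neither these counts nor that of the 25 were taken over all tested genes, so no share stands beside them.

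**Figure D1:**
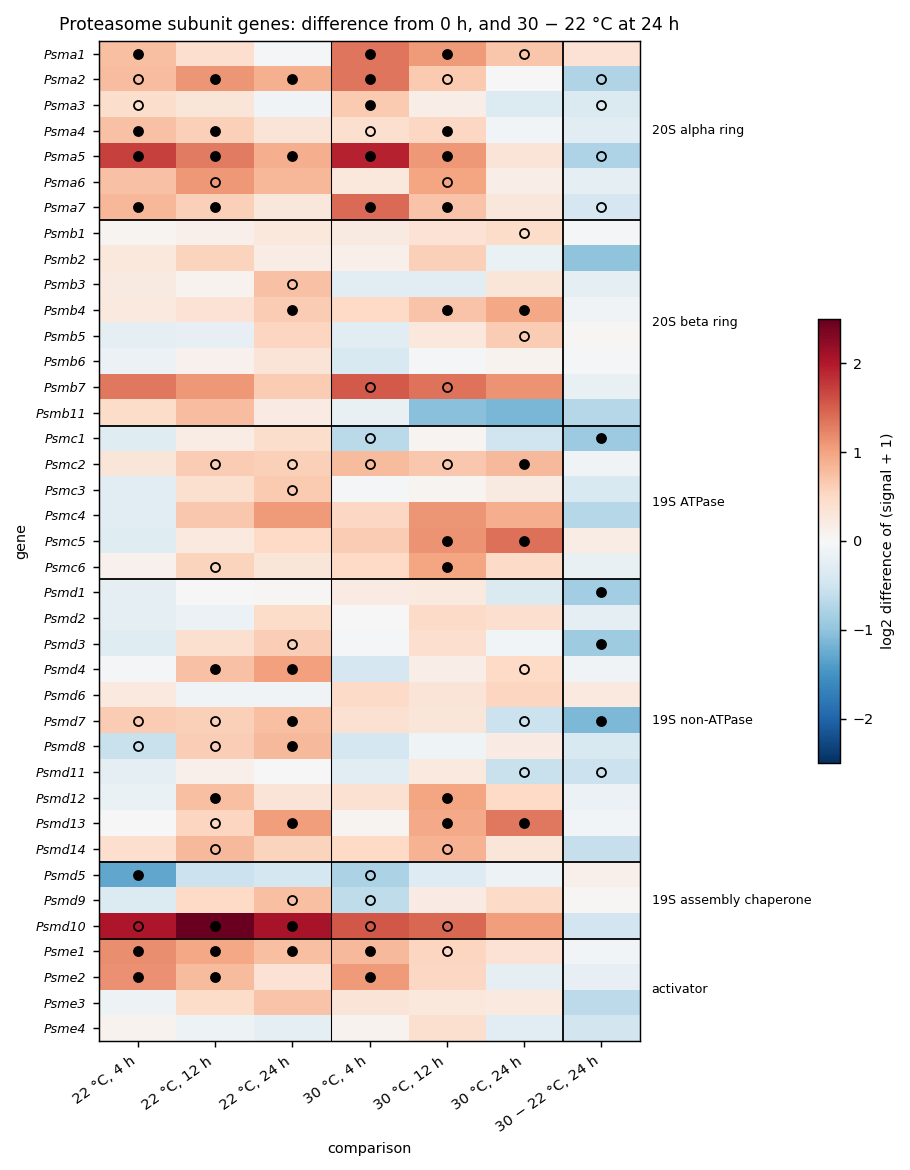
Log2 difference of (signal + 1) for the 39 tested members (rows, by structural class) since 0 h at each temperature and time, and between 30 °C and 22 °C at 24 h (columns). Circles mark calls at an adjusted p below 0.05, filled where the call held under every setting tried; the alpha ring is called mostly at 4 and 12 h, with 6 of 7 members rising at 4 h at both temperatures.

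The alpha ring, whose subunits form the outer rings and the gate of the barrel, gave most of its calls at 4 and 12 h. At 4 h 6 of its 7 tested members rose at each temperature, namely Psma1, Psma2, Psma3, Psma4, Psma5 and Psma7, and 0 fell. At 12 h 5 rose at 22 °C and 6 at 30 °C, and at 24 h 2 and 1. Of all genes 15.3% to 20.7% rose in these comparisons with 0 h. Of the 7, 5 had their highest group mean at 4 h at each temperature, and 4 of them did so at both (Psma1, Psma3, Psma5 and Psma7). The mean of the class stood 0.79 to 0.92 above the 22 °C 0 h mean in the 22 °C 4 h libraries and 0.87 to 1.27 above it in the 30 °C 4 h libraries, whereas the 0 h libraries lay between -0.28 and 0.15. The 1.27 is the replicate 4 that stood apart, and the other 30 °C 4 h libraries stood at 0.87 to 0.93. Marker sums of other cells moved in both directions from 0 to 4 h. At 22 °C the sum of 5 cholangiocyte markers ran from 48.7 to 93.4 at 0 h and from 190.3 to 360.5 at 4 h, and that of 8 T and NK cell markers from 3.96 to 14.7 and from 20.3 to 40.2. In each of these lists 1 marker was called, Sox9 and Gzmb. These weigh most in their sums, with mean signals of 92.6 and 14.9 over all libraries. Krt19, Krt7 and Epcam, and every T and NK cell marker but Gzmb, lay below the mean of 5 required for a test. The sums were lower at 4 h for Kupffer cells and macrophages (223 to 310.4 at 0 h and 118.1 to 192.1 at 4 h), for sinusoidal endothelium (300.3 to 353.1 at 0 h and 175.4 to 220.8 at 4 h) and for stellate cells (500.4 to 584.8 and 404.9 to 481.8), and their part in these results was not tested. Dcn weighs most in the stellate sum, with a mean signal of 449.3 over all libraries.

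Psma7 read 274, 288, 306 and 325 in the 22 °C livers at 0 h and 456, 536, 582 and 568 at 4 h. The difference was 0.84 ± 0.14 (limma adjusted p = 1.5e-05). In livers at 30 °C it read 219, 246, 184, 228 and 246 at 0 h and 712, 575, 620.0 and 508 at 4 h. The difference was 1.42 ± 0.13 (limma adjusted p = 1.67e-10). Every 4 h library lay above every 0 h library at both temperatures. Psma7 was still above 0 h at 12 h, by 0.59 ± 0.13 at 22 °C (adjusted p = 0.000551) and by 0.70 ± 0.13 at 30 °C (adjusted p = 6.22e-05), and all 4 of these calls held in every setting.

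Psma5 read 42.7, 30.1, 22.1 and 56.2 at 0 h and 123, 102, 118 and 134 at 4 h at 22 °C. The difference was 1.71 ± 0.27 (limma adjusted p = 5.95e-06). The 30 °C livers went from 34.2, 18.9, 33.4, 49.2 and 28.0 to 90.3, 119.5, 106 and 188. The difference was 1.92 ± 0.26 (limma adjusted p = 2.64e-07). The groups did not overlap at either temperature, and without the replicate 4 that stood apart the 30 °C difference was 1.71 (adjusted p = 5.42e-06). At 12 h Psma5 was higher than at 0 h by 1.30 ± 0.26 at 22 °C and by 1.09 ± 0.26 at 30 °C (adjusted p = 0.000105 and 0.000873), and at 24 h by 0.91 ± 0.26 at 22 °C (adjusted p = 0.00507). At 30 °C and 24 h the difference was 0.33 ± 0.24 (limma adjusted p = 0.334), which did not pass. Of the 31-base words in the last 300 bases of its transcripts, 69.6% also occur in other annotated genes, so its level is uncertain where reads could be divided among copies.

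Psma1 read 61.2, 38.6, 56.7 and 58.1 at 0 h and 80.1, 110.4, 92.7 and 80.6 at 4 h at 22 °C. The difference was 0.76 ± 0.20 (limma adjusted p = 0.00423). At 30 °C it read 43.1, 41.6, 23.6, 49.9 and 49.4 at 0 h, 115, 108, 77.8 and 118 at 4 h and 83.2, 97.01, 84.7 and 75.5 at 12 h. The 30 °C differences were 1.34 ± 0.19 (limma adjusted p = 1.01e-06) at 4 h and 1.06 ± 0.19 (limma adjusted p = 3.68e-05) at 12 h, and every library at these times lay above every 0 h library. At 24 h at 30 °C Psma1 was still 0.70 ± 0.18 above 0 h (adjusted p = 0.00361), a call that ended with a depth covariate (adjusted p = 0.119). At 22 °C it differed from 0 h by 0.42 ± 0.19 at 12 h (adjusted p = 0.0796) and by -0.05 ± 0.19 at 24 h (adjusted p = 0.877), neither of which passed.

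Psma2 read 41.9, 39.9, 45.0 and 80.0 at 0 h and 122, 108, 114, 97.1 and 98.6 at 12 h at 22 °C. The difference was 1.10 ± 0.27 (limma adjusted p = 0.00106), and the groups did not overlap. It stayed 0.90 ± 0.27 above 0 h at 24 h (adjusted p = 0.00735). In livers at 30 °C it read 49.5, 43.1, 78.3, 47.0 and 61.7 at 0 h and 100, 96.2, 103 and 374 at 4 h. The difference was 1.33 ± 0.27 (limma adjusted p = 0.000148). The 374.4 is the replicate 4 that stood apart, and without it the difference was 0.86 (adjusted p = 0.00133). The call at 4 h at 22 °C (0.78 ± 0.28, adjusted p = 0.0338) ended with no filter, in the other deposited column or with a depth covariate (adjusted p of 0.0513 to 0.11) and without 22 °C 0 h replicates 1, 2 or 3 or 22 °C 4 h replicates 1 or 3 (adjusted p of 0.0755 to 0.0987). The one at 12 h at 30 °C (0.65 ± 0.27, adjusted p = 0.0499) ended with no filter, in the other deposited column or with a depth covariate (adjusted p of 0.0597 to 0.11) and without 30 °C 0 h replicates 1, 2, 4 or 5 or 30 °C 12 h replicates 1, 2, 3 or 4 (adjusted p of 0.0523 to 0.142). Psma2 overlaps AW209491 on the same strand, a gene with a mean signal of 13.1.

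Psma4 rose by 0.73 ± 0.14 at 4 h and 0.59 ± 0.13 at 12 h at 22 °C (adjusted p = 8.92e-05 and 0.000518) and by 0.52 ± 0.13 at 12 h at 30 °C (adjusted p = 0.00182). It read 170.1, 219, 190.3 and 222 at 0 h and 306, 347, 352 and 325 at 4 h at 22 °C, with no overlap. Its 4 h difference at 30 °C (0.40 ± 0.13, adjusted p = 0.0171) was lost after upper-quartile rescaling, with a depth covariate or in a fit of its own groups (adjusted p of 0.0536 to 0.119) and without 30 °C 0 h replicates 1 or 2 or 30 °C 4 h replicate 4 (adjusted p of 0.0521 to 0.072). Psma3 rose at 4 h at 30 °C by 0.65 ± 0.14 (adjusted p = 0.0004), from 195, 187, 178, 171 and 224 to 282, 309, 294 and 309, and here too the groups did not overlap. At 22 °C its 4 h difference (0.44 ± 0.15, adjusted p = 0.022) was lost after upper-quartile rescaling, with a depth covariate or in a fit of its own groups (adjusted p of 0.062 to 0.113) and without 22 °C 0 h replicates 1 or 4 or 22 °C 4 h replicates 3 or 4 (adjusted p of 0.0735 to 0.0785). The 3′ ends of Psma3 and Psma4 share 42.2% and 39.5% of their words with other genes.

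Psma6 was called at 12 h alone. It differed by 1.08 ± 0.38 at 22 °C (adjusted p = 0.0221), from 22.8, 12.3, 9.38 and 1.31 to 17.96, 19.1, 28.8, 15.4 and 15.1, and by 0.98 ± 0.38 at 30 °C (adjusted p = 0.0415), from 10.6, 8.18, 23.3, 11.2 and 9.26 to 25.4, 33.6, 19.1 and 20.1. The 0 h and 12 h groups overlapped at both temperatures. At 22 °C the difference was 0.41 without replicate 4 of 0 h, the library at 1.31. The 22 °C call ended with no filter or in a fit of its own groups (adjusted p of 0.05 to 0.139) and without 22 °C 0 h replicate 4 or 22 °C 12 h replicate 3 (adjusted p of 0.0646 to 0.292), and at 30 °C with 0.5 added or with no filter (adjusted p of 0.0512 to 0.0892) and without 30 °C 0 h replicates 1, 2, 4 or 5 or 30 °C 12 h replicates 1 or 2 (adjusted p of 0.063 to 0.129). Psma8, the testis counterpart of Psma7, was above 0 in 4 of the 36 libraries with a mean signal of 0.133 and was not tested.

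**Figure D2:**
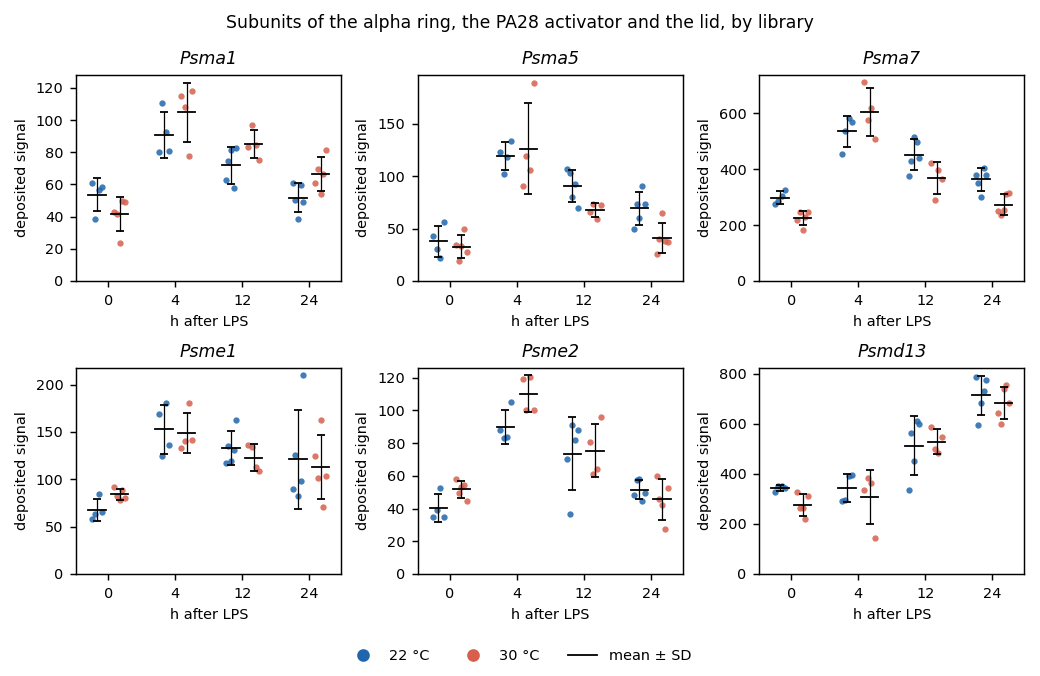
Deposited signal of Psma1, Psma5, Psma7, Psme1, Psme2 and Psmd13 (linear axes from 0) in each library by hours after LPS, at 22 °C (blue) and 30 °C (red), with the mean and SD of each group. Psma7 at 4 h reads 455.9 to 712.2 in every library against 183.6 to 325.2 at 0 h, whereas Psmd13 is highest at 24 h.

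Promoter sequences are shown for members whose transcripts rose early and for constitutive catalytic subunits, which gave fewer calls in the same livers. They are from RefSeq on GRCm38.p6 and run from 250 bases before to 50 bases after the annotated start, 5′ to 3′ on the gene's strand. RefSeq windows matched 33 of the 40 members (36 windows). Each window was searched on both strands for the antioxidant response element bound by the NRF1 and NRF2 factors (TGACNNNGC), the interferon-stimulated response element (GAAANNGAAA) and the CCAAT box (CCAAT). These motifs do not overlap in the windows printed, and capitals mark the matches. Psma1 lies at chr7:114276067-114276366, minus strand, Psma5 at chr3:108256676-108256975, plus strand and Psma7 at chr2:180042415-180042714, minus strand.
Psma1: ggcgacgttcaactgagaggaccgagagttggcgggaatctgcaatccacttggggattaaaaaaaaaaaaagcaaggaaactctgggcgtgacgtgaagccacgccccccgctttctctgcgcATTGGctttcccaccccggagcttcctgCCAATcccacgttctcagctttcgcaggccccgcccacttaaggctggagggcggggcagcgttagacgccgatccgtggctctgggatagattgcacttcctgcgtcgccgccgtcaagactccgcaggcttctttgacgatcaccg
Psma5: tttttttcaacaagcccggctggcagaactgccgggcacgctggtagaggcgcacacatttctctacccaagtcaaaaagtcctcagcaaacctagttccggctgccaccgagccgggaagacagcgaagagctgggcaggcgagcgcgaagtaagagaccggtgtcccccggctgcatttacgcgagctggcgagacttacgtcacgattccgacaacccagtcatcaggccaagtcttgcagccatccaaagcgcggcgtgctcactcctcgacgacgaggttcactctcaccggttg
Psma7: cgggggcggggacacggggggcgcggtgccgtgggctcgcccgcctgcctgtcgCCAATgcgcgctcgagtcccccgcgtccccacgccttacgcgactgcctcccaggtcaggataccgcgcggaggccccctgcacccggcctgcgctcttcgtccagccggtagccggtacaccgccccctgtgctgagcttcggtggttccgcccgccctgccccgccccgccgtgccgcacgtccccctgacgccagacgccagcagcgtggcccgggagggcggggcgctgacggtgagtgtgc
Psme1 is at chr14:55578244-55578543, plus strand, Psmb5 at chr14:54617946-54618245, minus strand and Psmb6 at chr11:70525107-70525406, plus strand.
Psme1: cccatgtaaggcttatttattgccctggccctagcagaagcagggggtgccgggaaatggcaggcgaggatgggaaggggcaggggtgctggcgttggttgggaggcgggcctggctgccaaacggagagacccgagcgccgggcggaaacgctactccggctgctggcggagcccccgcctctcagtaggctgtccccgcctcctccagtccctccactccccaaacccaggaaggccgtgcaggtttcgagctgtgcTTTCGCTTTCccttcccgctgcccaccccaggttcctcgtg
Psmb5: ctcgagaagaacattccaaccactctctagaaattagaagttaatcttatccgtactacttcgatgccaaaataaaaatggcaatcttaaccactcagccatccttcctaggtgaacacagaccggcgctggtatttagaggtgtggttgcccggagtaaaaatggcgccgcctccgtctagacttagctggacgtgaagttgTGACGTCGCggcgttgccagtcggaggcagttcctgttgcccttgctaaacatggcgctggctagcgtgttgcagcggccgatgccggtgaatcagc
Psmb6: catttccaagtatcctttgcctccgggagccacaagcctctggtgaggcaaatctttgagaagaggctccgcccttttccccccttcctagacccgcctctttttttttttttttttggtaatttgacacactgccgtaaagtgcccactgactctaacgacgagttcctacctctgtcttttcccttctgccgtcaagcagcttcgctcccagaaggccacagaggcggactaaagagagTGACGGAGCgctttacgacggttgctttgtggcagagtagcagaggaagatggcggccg
Psma1 holds CCAAT boxes starting 98 and 126 bases before the start and Psma7 holds 1 starting 196 bases before it, and Psma5 holds none of the 3 motifs. The CCAAT box occurs in 5 of 8 alpha-ring windows and in 13 of 36 windows of all members (36.1%), against 37.4% of the 32851 promoters in the table. The antioxidant response element starts 47 bases before the start of Psmb5 and 9 before that of Psmb6, and occurs in 6 of the 36 windows (16.7%) against 12.4% of all promoters. The alpha-ring windows hold 0 of it and 0 of the interferon-stimulated response element. The interferon-stimulated response element lies in the Psme1 window from base 10 after the start, and occurs in 4 of the 36 windows (11.1%; Psme1, Psmb3, Psmd4 and Psmd9) against 3.44% of all promoters. Psme2, which also rose at 4 h, and the inducible Psmb9 and Psmb10 hold no match to it in their windows. A match is a stretch of letters in these windows and was not tested for binding.

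Both subunits of the ring-shaped activator, Psme1 and Psme2, rose at 4 h at both temperatures, and the other activators did not pass. Psme1 read 57.9, 63.4, 84.4 and 65.3 at 0 h and 168, 125, 181 and 136 at 4 h at 22 °C. The difference was 1.16 ± 0.22 (limma adjusted p = 8.34e-05). The 30 °C livers read 91.7, 82.8, 78.0, 88.8 and 80.0 at 0 h and 133, 140.2, 180.1 and 141 at 4 h. The difference was 0.80 ± 0.21 (limma adjusted p = 0.00267). The groups did not overlap at either temperature. Psme1 stayed above 0 h at 22 °C by 0.97 ± 0.21 at 12 h (adjusted p = 0.000295) and 0.76 ± 0.21 at 24 h (adjusted p = 0.00404), where replicate 5 read 210.3 and the others 82.6 to 125.6. At 30 °C the 12 h difference of 0.53 ± 0.21 (adjusted p = 0.0407) ended with no filter (adjusted p = 0.0802) and without 30 °C 0 h replicates 2, 3 or 5 or 30 °C 12 h replicates 1, 2 or 3 (adjusted p of 0.0513 to 0.105), and at 24 h it was 0.37 ± 0.20 (adjusted p = 0.164).

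Psme2 read 34.8, 39.3, 52.8 and 34.9 at 0 h and 88.3, 83.0, 83.6 and 105 at 4 h at 22 °C. The difference was 1.15 ± 0.22 (limma adjusted p = 0.000132). At 30 °C it read 58.0, 49.5, 53.0, 54.4 and 44.3 at 0 h and 119, 100.4, 121 and 100.3 at 4 h. The difference was 1.07 ± 0.21 (limma adjusted p = 0.000141). Every 4 h library again lay above every 0 h library. At 12 h it was 0.80 ± 0.21 above 0 h at 22 °C (adjusted p = 0.00278), and at 30 °C the difference was 0.51 ± 0.21 (adjusted p = 0.0556). At 24 h it was 0.35 ± 0.21 and -0.22 ± 0.20 (adjusted p = 0.201 and 0.442). The 3′ end of Psme2 shares 71.4% of its words with other genes, most with Psme2b, and that of Psme1 shares 23.3% with other genes, so both are uncertain.

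Psme3, which encodes the nuclear activator, and Psme4, which encodes the large single-chain activator, passed in no comparison. Psme3 ranged over 6.25 to 14.6 at 0 h and 7.52 to 25.3 at 12 h at 22 °C, and over 3.09 to 12.2 and 2.99 to 26.9 at 30 °C. Psme4 lay between 1.53 and 11.9 in all 36 libraries, near the worth of 3 reads in many. At 4, 12 and 24 h the differences of Psme3 were -0.12 ± 0.46, 0.46 ± 0.44 and 0.72 ± 0.44 at 22 °C and 0.32 ± 0.44, 0.26 ± 0.44 and 0.25 ± 0.41 at 30 °C (adjusted p of 0.207 to 0.879). Those of Psme4 were 0.09 ± 0.43, -0.13 ± 0.41 and -0.24 ± 0.41 at 22 °C and 0.09 ± 0.41, 0.40 ± 0.41 and -0.27 ± 0.39 at 30 °C (adjusted p of 0.468 to 0.907).

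The beta ring, which lines the proteolytic chamber, gave most of its calls against 0 h at 24 h. At 22 °C 0 of its 8 members rose or fell at 4 h or at 12 h (1 of 8 at an unadjusted p below 0.05 each time), and 2 rose at 24 h. At 30 °C 1 rose at 4 h, 2 at 12 h and 3 at 24 h, and 0 fell. Across these comparisons 15.3% to 20.7% of all genes rose and 13.6% to 20.6% fell. At 24 h at 30 °C the rises made up 37.5% of the class, against 15.3% of all genes. Of the 8, 5 had their highest group mean at 24 h at both temperatures. Psmb4, a structural subunit, gave 3 calls that held in every setting. It read 201, 178, 125, 160.3 and 219 at 0 h and 289, 380.5, 248.7, 470.0 and 364 at 24 h at 30 °C. The difference was 0.98 ± 0.19 (limma adjusted p = 0.000115), with no overlap. It was also higher at 12 h at 30 °C by 0.72 ± 0.20 (adjusted p = 0.00393). At 22 °C it rose at 24 h by 0.63 ± 0.20 (adjusted p = 0.0116), from 215, 328, 211 and 203 to 367, 369.6, 389, 352 and 341, and there too every 24 h library lay above every 0 h library.

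The other structural beta subunits gave calls at 24 h that were lost with 1 library left out. Psmb3 at 22 °C differed by 0.72 ± 0.23 (adjusted p = 0.0114), from 44.5, 51.7, 30.5 and 58.7 to 76.9, 66.5, 63.6, 81.3 and 90.8, with no overlap, and lost its call without 22 °C 0 h replicate 3 (adjusted p = 0.0788). Psmb1 at 30 °C differed by 0.47 ± 0.15 (adjusted p = 0.0173), from 214, 222, 199, 181 and 299.9 to 248, 297, 310.1, 307 and 372, and lost its call in a fit of its own groups (adjusted p = 0.0529) and without 30 °C 0 h replicate 4 or 30 °C 24 h replicate 5 (adjusted p of 0.0579 to 0.0601). The 3′ end of Psmb3 shares 65.6% of its words with other genes. Psmb2 passed in no comparison, and read 3.48 to 62.9 over all libraries. Psmb11, the catalytic subunit of thymus cortex, passed in none either. It read 1.47 to 16.8 in 35 libraries and 40.2 in the 30 °C 4 h replicate 4 that stood apart.

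The constitutive catalytic subunits were read in livers where their inducible counterparts rose. Of the 6 comparisons with 0 h, Psmb6 was called in 0, Psmb5 in 1 and Psmb7 in 2. In these comparisons 15.3% to 20.7% of all genes rose. Psmb6, the caspase-like subunit, read 206, 265, 341 and 298 at 0 h and 239, 233, 242 and 267 at 4 h at 22 °C, and 352, 321, 309.6, 275 and 303 at 0 h and 244, 299, 272 and 165 at 4 h at 30 °C. Its differences at 4, 12 and 24 h were -0.16 ± 0.16, 0.12 ± 0.15 and 0.32 ± 0.15 at 22 °C and -0.38 ± 0.15, -0.03 ± 0.15 and 0.09 ± 0.14 at 30 °C (adjusted p of 0.0517 to 0.887). Without the replicate 4 that stood apart, the 4 h difference at 30 °C was -0.20 (limma adjusted p = 0.315). Psmb6 passed in none of the 17 comparisons.

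Psmb5, the chymotrypsin-like subunit, read 41.9, 44.1, 40.7 and 66.6 at 0 h, 46.4, 31.6, 36, 34.7 and 61.9 at 12 h and 66.4, 65.2, 59.2, 72.9 and 84.0 at 24 h at 22 °C. The differences from 0 h were -0.22 ± 0.23 at 4 h, -0.21 ± 0.22 at 12 h and 0.54 ± 0.22 at 24 h (adjusted p = 0.515, 0.48 and 0.0528), and none passed. From 12 to 24 h it rose by 0.74 ± 0.21 (limma adjusted p = 0.0158), a call lost without 22 °C 12 h replicate 2 (adjusted p = 0.0605). In livers at 30 °C it differed from 0 h by -0.27 ± 0.22 at 4 h, 0.26 ± 0.22 at 12 h and 0.64 ± 0.21 at 24 h (adjusted p = 0.362, 0.369 and 0.0184). The 24 h value passed, with 60.3, 73.4, 71.0, 66.1 and 84.0 against 43.7, 58.3, 58.9, 40.9 and 30.1 at 0 h, and was lost with a depth covariate (adjusted p = 0.0878) and without 30 °C 0 h replicate 5 or 30 °C 24 h replicate 5 (adjusted p of 0.0511 to 0.0767). The 3′ end of Psmb5 shares 62.9% of its words with other genes.

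Psmb7, the trypsin-like subunit, varied widely within groups. It read 6.84, 16.8, 4.69, 42.3 and 18.1 at 0 h and 45.8, 28.9, 52.1 and 41.0 at 4 h at 30 °C. The difference was 1.53 ± 0.50 (limma adjusted p = 0.0179), and the groups overlapped. That call ended with a depth covariate or in a fit of its own groups (adjusted p of 0.0517 to 0.152) and without 30 °C 0 h replicates 1 or 3 or 30 °C 4 h replicate 3 (adjusted p of 0.051 to 0.0708). The 12 h call at 30 °C (1.36 ± 0.50, adjusted p = 0.0314) ended with no filter, with a depth covariate or in a fit of its own groups (adjusted p of 0.0584 to 0.0795) and without 30 °C 0 h replicates 1 or 3 or 30 °C 12 h replicates 2 or 4 (adjusted p of 0.0681 to 0.141). At 22 °C its differences of 1.31 ± 0.53, 1.08 ± 0.50 and 0.64 ± 0.50 at 4, 12 and 24 h did not pass (adjusted p = 0.0618, 0.0855 and 0.344). Psmb7 overlaps Nek6 on the other strand, a gene with a mean signal of 58.7. This overlap is one of whole gene spans, and whether reads of the pair were mixed was not tested.

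All 3 inducible subunits rose at 4 and 12 h at both temperatures in the same fit, where 15.8% to 20.7% of all genes rose. Psmb8 read 9.85, 7.72, 11.6 and 19.8 at 0 h and 116, 80.7, 73.3 and 71.3 at 4 h at 22 °C, and 25.3, 10.1, 23.6, 15.2 and 20.1 at 0 h and 86.4, 73.5, 88.6 and 101 at 4 h at 30 °C. The differences were 2.75 ± 0.27 (limma adjusted p = 4.63e-10) and 2.21 ± 0.26 (limma adjusted p = 1.47e-08). Within each library the log2 ratio of an inducible subunit to the constitutive subunit whose place it takes was then compared with 0 h by a two-sided exact permutation test over libraries. The 18 comparisons were adjusted together by Benjamini-Hochberg, and 6 passed. The Psmb8 to Psmb5 ratio averaged -1.94 ± 0.31 at 0 h (SD, n = 4) and 0.87 ± 0.37 at 12 h (n = 5) at 22 °C, a difference of 2.81, and at 24 h the difference was 1.62. At 30 °C the differences were 2.48 at 4 h and 1.92 at 12 h. The Psmb9 to Psmb6 ratio rose by 1.69 at 12 h at 22 °C and by 2.66 at 12 h at 30 °C. These 6 comparisons had an exact p of 0.0159, the smallest that 4 against 5 libraries allow, and an adjusted p of 0.0476, and every later library lay above every 0 h library.

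At 4 h at 22 °C 4 libraries stood against 4, where the smallest possible exact p is 0.0286, and the Psmb8 to Psmb5 and Psmb9 to Psmb6 differences of 2.98 and 2.40 reached it (adjusted p = 0.0571) without overlap. The Psmb9 to Psmb6 difference at 4 h at 30 °C was 3.26 (exact p = 0.0317, adjusted p = 0.0571), with 1 overlapping library. No Psmb10 to Psmb7 ratio passed. Its differences were 1.22, 1.44 and 1.05 at 4, 12 and 24 h at 22 °C and 0.33, 0.60 and -1.72 at 30 °C (adjusted exact p of 0.0571 to 0.639). With 1 library left out, the 6 ratios that passed kept their sign and were given no test.

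**Figure D3:**
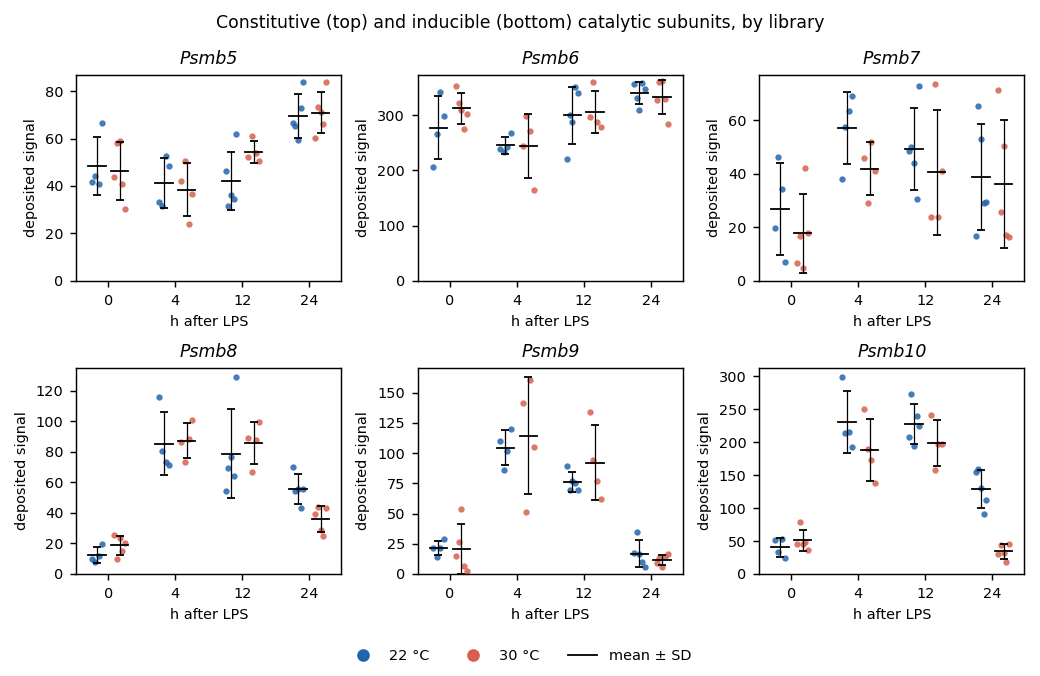
Deposited signal of the constitutive catalytic subunits Psmb5, Psmb6 and Psmb7 (top) and of the inducible Psmb8, Psmb9 and Psmb10 (bottom) in each library by hours after LPS, at 22 °C (blue) and 30 °C (red), with group mean and SD on linear axes from 0. Psmb8 reads 71.4 to 115.8 at 4 h against 7.72 to 25.3 at 0 h, while Psmb6 at 4 h reads 164.7 to 298.7 against 206.0 to 352.4 at 0 h.

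The 6 ATPases, which form the motor ring of the 19S particle, gave most of their calls at 12 and 24 h. At 4 h 0 of 6 rose or fell at 22 °C (0 at an unadjusted p below 0.05), and 1 rose and 1 fell at 30 °C. At 12 h 2 rose at 22 °C and 3 at 30 °C, and at 24 h 2 rose at each temperature. Among all genes 15.3% to 20.7% rose and 13.6% to 20.6% fell in these comparisons. Psmc5 read 9.50, 23.6, 8.69, 4.82 and 10.4 at 0 h, 19.3, 31.5, 19.6 and 24.2 at 12 h and 32.9, 36.6, 23.9, 28.7 and 19.2 at 24 h at 30 °C. The differences were 1.13 ± 0.28 (limma adjusted p = 0.00163) and 1.37 ± 0.27 (limma adjusted p = 0.000145), and the 24 h range of 19.2 to 36.6 overlapped the single high 0 h value of 23.6. At 22 °C Psmc5 differed by 0.50 ± 0.28 at 24 h (adjusted p = 0.171). Psmc6 read 70.2, 63.4, 28.6, 46.7 and 43.9 at 0 h and 92.4, 102, 93.4 and 97.05 at 12 h at 30 °C. The difference was 0.98 ± 0.20 (limma adjusted p = 0.000159) without overlap. At 22 °C its 12 h call (0.55 ± 0.20, adjusted p = 0.0255) was lost with a depth covariate or in a fit of its own groups (adjusted p of 0.0516 to 0.0951) and without 22 °C 0 h replicate 3 or 22 °C 12 h replicates 1 or 3 (adjusted p of 0.0534 to 0.161).

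Psmc2 was called in 5 of the 6 comparisons with 0 h, and the call held in every setting at 24 h at 30 °C. There it read 58.9, 66.4, 92.1, 101 and 76.4 at 0 h and 97.7, 113, 176, 171 and 145 at 24 h. The difference was 0.81 ± 0.21 (limma adjusted p = 0.0035). The groups overlapped by 1 library of each. At 4 h at 30 °C the difference of 0.78 ± 0.23 (adjusted p = 0.00688) was lost with a depth covariate or in a fit of its own groups (adjusted p of 0.0772 to 0.088) and without 30 °C 4 h replicate 4 (adjusted p = 0.0796). Replicate 4 of that group read 251.7 and the others 88.6 to 141.1, and the difference without it was 0.48. At 12 h the calls of 0.64 ± 0.23 at 22 °C (adjusted p = 0.0226) and 0.67 ± 0.23 at 30 °C (adjusted p = 0.0184) were lost without 22 °C 0 h replicate 4 (adjusted p = 0.0621) and without 30 °C 0 h replicate 1 or 30 °C 12 h replicate 3 (adjusted p of 0.0575 to 0.0691). The 22 °C 24 h call (0.60 ± 0.23, adjusted p = 0.0338) was lost with no filter (adjusted p = 0.0711) and without 22 °C 0 h replicates 1, 2, 3 or 4 or 22 °C 24 h replicates 1, 3 or 4 (adjusted p of 0.0503 to 0.0865).

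Psmc3 differed by 0.66 ± 0.21 at 24 h at 22 °C (adjusted p = 0.0112), from 109, 116, 111 and 73.4 to 216, 165, 121, 152 and 159, without overlap. The call was lost without 22 °C 0 h replicate 4 (adjusted p = 0.0698). Psmc1 was the ATPase that fell, with a difference of -0.67 ± 0.23 (limma adjusted p = 0.0197) at 4 h at 30 °C, from 20.6, 21.02, 43.1, 21.01 and 32.1 to 17.9, 11.5, 13.7 and 24.1. These groups overlapped, and the call was lost in a fit of its own groups (adjusted p = 0.141) and without 30 °C 0 h replicates 3 or 5 or 30 °C 4 h replicates 2 or 3 (adjusted p of 0.0516 to 0.103). Psmc4 read 4.24 to 124.1 over all libraries and passed in no comparison.

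The 11 non-ATPase subunits, the scaffold, receptors and lid of the 19S particle, gave most of their calls after 4 h. At 22 °C 1 rose and 1 fell at 4 h, 6 rose at 12 h and 5 at 24 h. At 30 °C 0 rose or fell at 4 h (2 at an unadjusted p below 0.05, both lower), 3 rose at 12 h, and 2 rose and 2 fell at 24 h. The shares of all genes in these comparisons were 15.3% to 20.7% rising and 13.6% to 20.6% falling. At 22 °C 7 of the 11 had their highest group mean at 24 h, and at 30 °C 6 had it at 12 h. The plot of class means shows the alpha ring high at 4 h. The mean of the ATPases at 30 °C averaged -0.31 at 0 h and -0.02 at 4 h, both against the 22 °C 0 h mean.

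**Figure D4:**
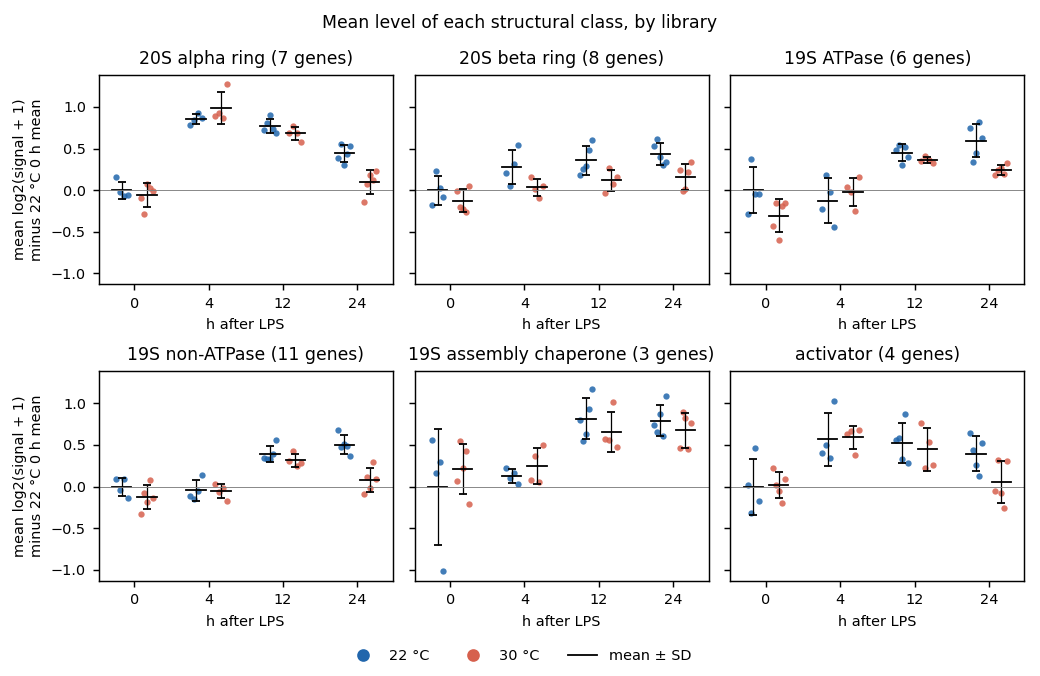
Mean over the tested members of each structural class of log2(signal + 1) minus the 22 °C 0 h mean, in each library (points) by hours after LPS at 22 °C (blue) and 30 °C (red), with group mean and SD. The alpha ring lies at 0.79 to 1.27 in all 8 libraries at 4 h, whereas the 19S non-ATPase class lies at -0.17 to 0.14 in them. The 1.27 and the -0.17 are both the 30 °C replicate 4 that stood apart.

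Psmd13, a lid subunit, had the smallest p of all members at 24 h at both temperatures. It read 326, 352, 353 and 342 at 0 h and 785, 595, 681, 731 and 776 at 24 h at 22 °C. The difference was 1.05 ± 0.20 (limma adjusted p = 5.64e-05). The 30 °C livers read 328, 264, 262, 219 and 312 at 0 h, 588, 498, 481 and 547 at 12 h and 645, 601, 738, 756 and 682 at 24 h. Every 24 h library lay above every 0 h library at both temperatures. The 30 °C differences were 0.94 ± 0.20 (limma adjusted p = 0.000206) and 1.31 ± 0.18 (limma adjusted p = 9.58e-07). At 12 h at 22 °C the difference of 0.54 ± 0.20 (adjusted p = 0.0251) was lost with no filter (adjusted p = 0.056) and without 22 °C 0 h replicate 1 or 22 °C 12 h replicates 2, 4 or 5 (adjusted p of 0.0562 to 0.0692). Psmd13 overlaps Sirt3 on the other strand, which had a mean signal of 21.

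Psmd4, the ubiquitin receptor of the 19S base, read 74.7, 107, 79.7 and 85.9 at 0 h and 169.7, 213, 162, 147 and 194 at 24 h at 22 °C. The difference was 1.02 ± 0.20 (limma adjusted p = 0.000102). All 24 h libraries lay above all 0 h libraries, and at 12 h the difference was 0.73 ± 0.20 (adjusted p = 0.00339). At 30 °C it was -0.42 ± 0.20 at 4 h and 0.16 ± 0.20 at 12 h (adjusted p = 0.106 and 0.559). The 24 h call at 30 °C (0.51 ± 0.19, adjusted p = 0.04) was lost with no filter or with a depth covariate (adjusted p of 0.0787 to 0.15) and without 30 °C 0 h replicates 1, 3 or 4 or 30 °C 24 h replicates 2, 3, 4 or 5 (adjusted p of 0.0622 to 0.109).

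At 12 h Psmd12, a lid subunit, was higher by 0.75 ± 0.24 (limma adjusted p = 0.0107) at 22 °C and by 0.99 ± 0.24 (limma adjusted p = 0.00106) at 30 °C. It read 54.2, 32.0, 34.3 and 43.9 at 0 h and 70.3, 53.4, 74.8, 65.6 and 81.9 at 12 h at 22 °C and 27.6, 43.1, 28.6, 53.7 and 18.8 at 0 h and 73.7, 70.4, 55.4 and 61.9 at 12 h at 30 °C. The groups were separate at 30 °C and overlapped by 1 library of each at 22 °C. Psmd8, also of the lid, was lower at 4 h and higher at 12 and 24 h at 22 °C. It read 123, 137, 149 and 112 at 0 h, 92.6, 66.9, 96.2 and 97.7 at 4 h and 223, 272, 175, 284 and 207 at 24 h. The 24 h libraries lay above the 0 h ones, with a difference of 0.81 ± 0.20 (limma adjusted p = 0.00168). The 4 h libraries lay below them (-0.56 ± 0.21, adjusted p = 0.0447), a call lost with no filter, after median-ratio rescaling, with the replicate block or with a depth covariate (adjusted p of 0.053 to 0.111) and without 22 °C 0 h replicates 1, 2 or 3 or 22 °C 4 h replicates 1, 2 or 3 (adjusted p of 0.0515 to 0.167). The 12 h call (0.61 ± 0.20, adjusted p = 0.016) was lost without 22 °C 0 h replicate 4 or 22 °C 12 h replicate 1 (adjusted p of 0.0552 to 0.0577).

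Psmd7, the lid partner of the deubiquitinase Psmd14, differed from 0 h with opposite signs at 24 h. At 22 °C it read 117, 93.3, 185 and 121 at 0 h and 271, 228, 255, 194 and 143 at 24 h. The difference was 0.76 ± 0.22 (limma adjusted p = 0.00634). In livers at 30 °C it read 117, 132, 218, 144 and 116 at 0 h and 97.7, 92.2, 67.8, 171 and 82.8 at 24 h. The difference was -0.54 ± 0.21 (limma adjusted p = 0.0497). The groups overlapped at both temperatures, and the 30 °C call was lost with 0.5 added, with no filter, after upper-quartile rescaling, after median-ratio rescaling, with a depth covariate or in a fit of its own groups (adjusted p of 0.05 to 0.251) and without 30 °C 0 h replicates 2, 3 or 4 or 30 °C 24 h replicates 1, 2, 3 or 5 (adjusted p of 0.059 to 0.191). Earlier calls at 22 °C were 0.63 ± 0.23 at 4 h (adjusted p = 0.0381), lost with no filter, in the other deposited column or after upper-quartile rescaling (adjusted p of 0.0527 to 0.0929) and without 22 °C 0 h replicates 1, 2 or 4 or 22 °C 4 h replicates 1 or 4 (adjusted p of 0.061 to 0.144), and 0.60 ± 0.22 at 12 h (adjusted p = 0.027), lost with no filter (adjusted p = 0.0585) and without 22 °C 0 h replicates 1, 2 or 4 (adjusted p of 0.0561 to 0.122).

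Psmd14 itself differed at 12 h by 0.81 ± 0.28 at 22 °C (adjusted p = 0.0193) and by 0.88 ± 0.28 at 30 °C (adjusted p = 0.0119). It read 13.1, 13.8, 8.50 and 13.2 at 0 h and 27.9, 29.9, 16.8, 18.6 and 18.2 at 12 h at 22 °C, without overlap. The 22 °C call was lost with a depth covariate (adjusted p = 0.0789) and without 22 °C 0 h replicate 3 or 22 °C 12 h replicates 1 or 2 (adjusted p of 0.0526 to 0.0843), and the 30 °C call with a depth covariate or in a fit of its own groups (adjusted p of 0.057 to 0.06). Psmd3 at 22 °C and 24 h differed by 0.61 ± 0.18 (adjusted p = 0.00621), lost in a fit of its own groups (adjusted p = 0.0594) and without 22 °C 0 h replicate 2 (adjusted p = 0.0584). Psmd11 was lower at 24 h at 30 °C, with a difference of -0.55 ± 0.18 (adjusted p = 0.0167), from 60.9, 100.3, 63.1, 91.7 and 96.96 to 48.2, 54.5, 42.7, 76.2 and 57.2 with overlap, and was lost after upper-quartile rescaling, with a depth covariate or in a fit of its own groups (adjusted p of 0.072 to 0.12) and without 30 °C 0 h replicate 2 or 30 °C 24 h replicate 3 (adjusted p of 0.0535 to 0.0597). The 3′ end of Psmd11 shares 25.4% of its words with other genes, so its level is uncertain. The scaffold subunits Psmd1 and Psmd2 and the lid subunit Psmd6 were not called against 0 h at any time.

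The assembly chaperones of the 19S base, which hold ATPases in place while the particle is built, split in direction. Psmd10, also known as gankyrin, read 13.8, 8.96, 15.5 and 0 at 0 h and 31.4, 24.4, 27.2 and 27.4 at 4 h at 22 °C. It then read 34.0, 41.2, 31.8, 36.7 and 49.4 at 12 h and 22.5, 30.0, 31.2, 25.0 and 35.8 at 24 h, and every later library lay above every 0 h library. The differences were 2.48 ± 0.50 (limma adjusted p = 0.000129) at 12 h and 2.07 ± 0.50 (limma adjusted p = 0.00115) at 24 h. At 4 h it was 2.02 ± 0.52 (adjusted p = 0.00308), lost in a fit of its own groups (adjusted p = 0.0651). Since 1 of the 0 h libraries is at 0, these sizes depend on the 1 added before the log. Without that library (replicate 4) the differences were 1.08, 1.54 and 1.14 at 4, 12 and 24 h (adjusted p = 0.0292, 0.000865 and 0.0133). At 30 °C Psmd10 read 4.68, 19.3, 8.55, 20.2 and 3.82 at 0 h. The differences there were 1.55 ± 0.50 at 4 h (adjusted p = 0.0154), lost with a depth covariate (adjusted p = 0.144) and without 30 °C 0 h replicate 5 (adjusted p = 0.0553), and 1.44 ± 0.50 at 12 h (adjusted p = 0.0202), lost with no filter (adjusted p = 0.0527) and without 30 °C 0 h replicates 1 or 5 or 30 °C 12 h replicate 3 (adjusted p of 0.0617 to 0.0906).

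Psmd5 was lower at 4 h. It read 23.4, 15.7, 15.4 and 22.8 at 0 h and 7.03, 9.64, 8.73 and 4.43 at 4 h at 22 °C. The difference was -1.29 ± 0.29 (limma adjusted p = 0.000864). The 30 °C livers read 15.7, 18.7, 16.2, 12.1 and 20.6 at 0 h and 8.84, 11.0, 6.97 and 9.68 at 4 h. The difference was -0.80 ± 0.28 (limma adjusted p = 0.0257). Every 4 h library lay below every 0 h library at both temperatures, and the 30 °C call was lost with the replicate block or with a depth covariate (adjusted p of 0.054 to 0.0702) and without 30 °C 0 h replicates 2 or 5 or 30 °C 4 h replicates 1 or 3 (adjusted p of 0.0508 to 0.0854). Psmd9 differed by -0.64 ± 0.23 at 4 h at 30 °C (adjusted p = 0.0331), lost with a depth covariate or in a fit of its own groups (adjusted p of 0.167 to 0.185) and without 30 °C 0 h replicates 1, 3 or 4 or 30 °C 4 h replicates 1 or 3 (adjusted p of 0.0504 to 0.144). At 24 h at 22 °C it differed by 0.75 ± 0.23 (adjusted p = 0.0106), lost in a fit of its own groups (adjusted p = 0.0516) and without 22 °C 0 h replicate 4 (adjusted p = 0.0644). Psmd9 overlaps Hpd on the other strand, which had a mean signal of 110 and is strongly expressed in hepatocytes. The overlap is one of whole gene spans, and whether it affects the reads of Psmd9 was not tested.

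The temperatures were compared at each time. Between 30 °C and 22 °C 0 of 39 members differed at 0 h (0.506% of all genes), at 4 h (0.207%) or at 12 h (4.26%), with 5, 1 and 3 members at an unadjusted p below 0.05. At 24 h 0 members were higher at 30 °C (9.93% of all genes; 0 members at an unadjusted p below 0.05) and 9 were lower (8.71%). Of the 9, 4 belong to the alpha ring, 4 are 19S non-ATPase subunits and 1 is an ATPase. The count was 5 without 22 °C 24 h replicate 2 and 4 without 30 °C 24 h replicate 1, 5 with no filter and 5 in a fit of these groups alone. Estimated reads averaged 856000 at 22 °C and 1425000 at 30 °C in these 24 h groups. The summed Kupffer cell and macrophage markers ran from 51.2 to 164.2 at 22 °C and from 131.4 to 167.1 at 30 °C at 24 h, with 1 of 9 tested markers higher at 30 °C. Of 7 tested markers of sinusoidal endothelium 4 were higher at 30 °C (Clec4g, Kdr, Fcgr2b and Stab1), and their median difference was 0.98. The sum of that list ran from 109.3 to 247.6 at 22 °C and from 211.7 to 256.4 at 30 °C. In the stellate list 2 of 6 and in the hepatocyte list 2 of 8 were higher, and the part of these markers was not tested.

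Of these, 4 held in every setting. Psmd7 read 271, 228, 255, 194 and 143 at 22 °C and 97.7, 92.2, 67.8, 171 and 82.8 at 30 °C. The difference was -1.12 ± 0.21 (limma adjusted p = 0.000178). Psmd3, a lid subunit, read 122, 113, 83.9, 109 and 119 at 22 °C and 42.0, 61.4, 60.9, 63.2 and 65.2 at 30 °C. The difference was -0.90 ± 0.17 (limma adjusted p = 0.000193). The Psmd3 groups were separate, while 1 library of each overlapped for Psmd7. Psmc1, an ATPase, read 39.9, 32.9, 38.3, 27.6 and 42.0 and 22.7, 16.1, 12.8, 19.3 and 23.6. The difference was -0.92 ± 0.21 (limma adjusted p = 0.00213). Psmd1, the scaffold of the base, read 80.9, 104, 123, 91.1 and 87.1 and 55.8, 67.3, 31.7, 60.5 and 54.6. The difference was -0.87 ± 0.21 (limma adjusted p = 0.0035). Neither pair of groups overlapped. The 3′ end of Psmd1 shares 74.4% of its words with other genes, most with Gm21972, which overlaps it on the same strand and was listed at 0, so its level is uncertain.

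**Figure D5:**
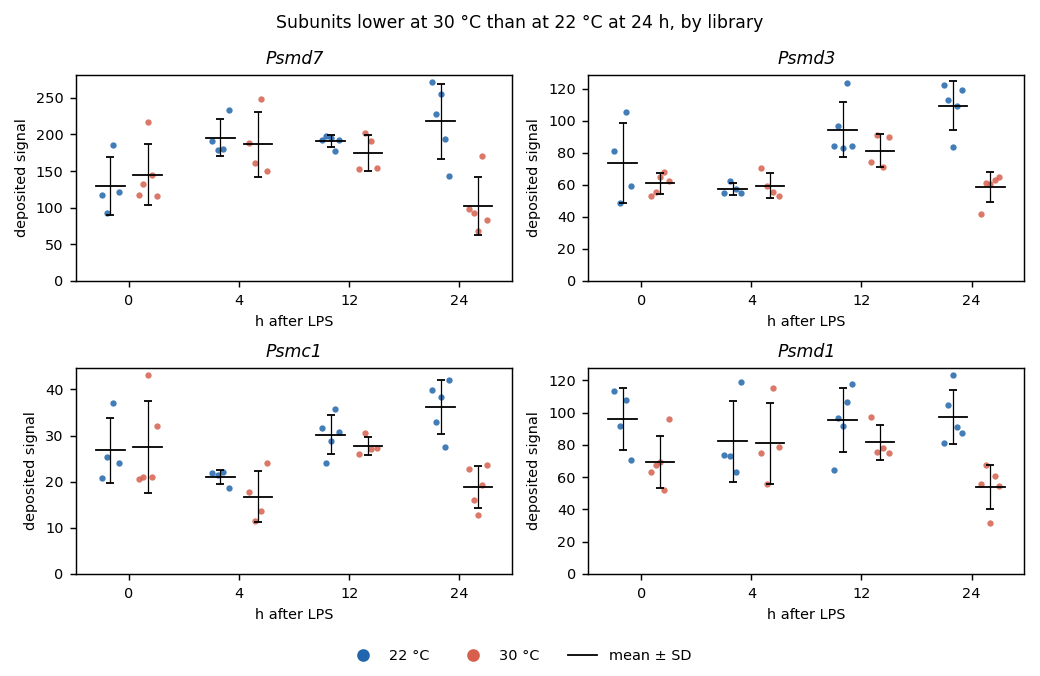
Deposited signal of Psmd7, Psmd3, Psmc1 and Psmd1 in each library by hours after LPS, at 22 °C (blue) and 30 °C (red), with group mean and SD on linear axes from 0. At 24 h the Psmd3 libraries read 83.9 to 122.4 at 22 °C and 42.0 to 65.2 at 30 °C, and at the earlier times the temperatures overlap for all 4 genes.

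The other 5 were closer to the threshold. Psma7 differed between 30 °C and 22 °C by -0.41 ± 0.13 (adjusted p = 0.0195), lost after upper-quartile rescaling or in a fit of its own groups (adjusted p of 0.0602 to 0.0803) and without 22 °C 24 h replicate 4 or 30 °C 24 h replicates 1 or 2 (adjusted p of 0.0515 to 0.0572). Psma5 differed by -0.77 ± 0.24 (adjusted p = 0.0241), lost with no filter, with a depth covariate or in a fit of its own groups (adjusted p of 0.0524 to 0.0825) and without 22 °C 24 h replicates 2 or 4 or 30 °C 24 h replicate 1 (adjusted p of 0.0535 to 0.0913). Psma2 differed by -0.75 ± 0.25 (adjusted p = 0.0325), lost with no filter (adjusted p = 0.0754) and without 22 °C 24 h replicates 2, 3 or 5 or 30 °C 24 h replicates 1 or 2 (adjusted p of 0.0547 to 0.0955), although its groups, 74.9, 108, 99.4, 84.5 and 103 and 40.6, 53.1, 63.9, 60.7 and 59.6, did not overlap. Psma3 differed by -0.37 ± 0.13 (adjusted p = 0.0456), lost with no filter, after upper-quartile rescaling, after median-ratio rescaling, with a depth covariate or in a fit of its own groups (adjusted p of 0.0597 to 0.112) and without 22 °C 24 h replicates 2, 3, 4 or 5 or 30 °C 24 h replicates 1, 2, 3 or 4 (adjusted p of 0.0602 to 0.113). Psmd11 differed by -0.54 ± 0.18 (adjusted p = 0.0297), lost with no filter, after upper-quartile rescaling, with a depth covariate or in a fit of its own groups (adjusted p of 0.0529 to 0.102) and without 22 °C 24 h replicates 1, 2 or 3 or 30 °C 24 h replicates 1 or 3 (adjusted p of 0.0655 to 0.106).

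The catalytic subunits did not pass between temperatures at 24 h, with differences of 0.03 ± 0.21 for Psmb5, -0.04 ± 0.14 for Psmb6 and -0.18 ± 0.47 for Psmb7 (adjusted p = 0.943, 0.897 and 0.841). The activators differed by -0.07 ± 0.20 for Psme1, -0.21 ± 0.20 for Psme2, -0.66 ± 0.41 for Psme3 and -0.45 ± 0.39 for Psme4 (adjusted p = 0.85, 0.513, 0.291 and 0.459). At 0, 4 and 12 h the temperature differences of these 7 genes lay between -0.66 and 0.40 (adjusted p of 0.365 to 0.988). The inducible Psmb10 read 155, 159, 130.4, 90.7 and 112 at 22 °C and 30.6, 44.4, 32.0, 18.2 and 45.8 at 30 °C at 24 h. The difference was -1.93 ± 0.23 (limma adjusted p = 2.89e-07).

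Whether the change since 0 h differed between temperatures was tested by the interaction, the change at 30 °C minus that at 22 °C. At 4 h 0 of 39 members passed (0.0115% of all genes) and at 12 h 0 (0.276%), with 3 and 4 members at an unadjusted p below 0.05. At 24 h 1 passed, against 8.95% of all genes, with 9 at an unadjusted p below 0.05. It was Psmd7, whose change was lower at 30 °C, with an interaction of -1.30 ± 0.30 (limma adjusted p = 0.00552), a call that held in every setting. The count was 2 with the other deposited column or with a depth covariate. It was 2 or 3 without 22 °C 0 h replicate 2 or 3, 30 °C 0 h replicate 1, 2 or 4, 22 °C 24 h replicate 3 or 4, or 30 °C 24 h replicate 1 or 5. Next were Psmc1 (-0.93 ± 0.31, adjusted p = 0.0539) and Psmd3 (-0.68 ± 0.24, adjusted p = 0.0747), which did not pass. Thus the difference of Psmd3 between temperatures at 24 h was not shown to be a difference in its change since 0 h.

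The later times were also compared with each other. From 4 to 12 h at 22 °C 8 members rose (11.9% of all genes) and 0 fell (14.4%; 0 at an unadjusted p below 0.05), and all 8 belong to the 19S particle or its chaperones. Psmd8 rose by 1.17 ± 0.20 (limma adjusted p = 5.65e-05), from 92.6, 66.9, 96.2 and 97.7 to 266, 202, 179, 169.7 and 185, without overlap. Psmd3 rose by 0.69 ± 0.18, Psmd12 by 0.93 ± 0.24, Psmd4 by 0.77 ± 0.20 and Psmd9 by 0.84 ± 0.23 (adjusted p = 0.00374, 0.00376, 0.00422 and 0.00664). These 5 held in every setting. Psmc3 (0.67 ± 0.21) was lost in a fit of its own groups (adjusted p = 0.0596) and without 22 °C 4 h replicate 1 (adjusted p = 0.155), where the difference was 0.39. Psmd13 (0.56 ± 0.20) was lost with no filter, with the replicate block or in a fit of its own groups (adjusted p of 0.0547 to 0.075) and without 22 °C 4 h replicates 1 or 2 or 22 °C 12 h replicates 2, 4 or 5 (adjusted p of 0.0672 to 0.105). Psmd5 (0.76 ± 0.28) was lost with no filter, with the replicate block or in a fit of its own groups (adjusted p of 0.0761 to 0.134) and without 22 °C 4 h replicates 1 or 4 or 22 °C 12 h replicates 1, 3, 4 or 5 (adjusted p of 0.0614 to 0.183). The count was 5 without 22 °C 4 h replicate 1 and 5 in a fit of these groups alone.

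From 12 to 24 h at 22 °C 2 members rose (4.02% of all genes), Psmb5, described above, and Psmd2, a scaffold subunit. None fell, against 6.6% of all genes, and 5 members were lower at an unadjusted p below 0.05. Psmd2 differed by 0.61 ± 0.19 (adjusted p = 0.0327), lost with no filter or in a fit of its own groups (adjusted p of 0.0523 to 0.0774) and without 22 °C 12 h replicates 1, 3 or 4 or 22 °C 24 h replicates 1, 3, 4 or 5 (adjusted p of 0.0512 to 0.107). The 3′ end of Psmd2 shares 50.9% of its words with other genes. The count ran from 1 to 4 with 1 library left out. It was 1 without 22 °C 12 h replicate 3 or 22 °C 24 h replicate 1, 3, 4 or 5, and 4 without 22 °C 12 h replicate 5.

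At 30 °C 5 members rose from 4 to 12 h (12.3% of all genes) and 3 fell (17.9%). Those that fell were alpha-ring genes. Psma7 changed by -0.72 ± 0.14 (limma adjusted p = 0.000166), from 712, 575, 620.0 and 508 to 423, 288, 396 and 365, without overlap. Psma3 (-0.48 ± 0.15, adjusted p = 0.0119) was lost after upper-quartile rescaling (adjusted p = 0.265) and without 30 °C 12 h replicate 4 (adjusted p = 0.0533). Psma5 (-0.83 ± 0.27, adjusted p = 0.0183) was lost after upper-quartile rescaling (adjusted p = 0.0829) and without 30 °C 4 h replicate 4 or 30 °C 12 h replicate 3 (adjusted p of 0.0501 to 0.0975). Of those that rose, Psmd13 held throughout (0.87 ± 0.21, adjusted p = 0.00138), with a difference of 0.55 without the replicate 4 that stood apart (adjusted p = 0.0135). Psmd9 (0.84 ± 0.24) was lost in a fit of its own groups (adjusted p = 0.0616). Psmc1 (0.74 ± 0.24) was lost in a fit of its own groups (adjusted p = 0.0558) and without 30 °C 4 h replicates 2 or 3 (adjusted p of 0.0514 to 0.0773). Psmd4 (0.58 ± 0.21) was lost with no filter or in a fit of its own groups (adjusted p of 0.0625 to 0.0936) and without 30 °C 4 h replicates 3 or 4 or 30 °C 12 h replicates 2 or 4 (adjusted p of 0.0744 to 0.136). Psmd11 (0.53 ± 0.20) was lost with no filter, with the replicate block, with a depth covariate or in a fit of its own groups (adjusted p of 0.0526 to 0.143) and without 30 °C 4 h replicates 1, 2 or 4 or 30 °C 12 h replicates 1 or 2 (adjusted p of 0.0535 to 0.168). After upper-quartile rescaling, which moved the median of all genes in this step from -0.03 to 0.21, 13 members rose and 1 fell, and without the replicate 4 that stood apart 3 rose and 2 fell.

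From 12 to 24 h at 30 °C 0 members rose (11.6% of all genes; 1 at an unadjusted p below 0.05) and 8 fell (9.52%). Psma4 changed by -0.60 ± 0.13 (limma adjusted p = 0.00106), from 333, 342, 291 and 292 to 186, 179, 226, 233 and 216, without overlap. Psmd11 changed by -0.79 ± 0.19 (limma adjusted p = 0.00225) and Psmd7 by -0.83 ± 0.22 (limma adjusted p = 0.0061), and these 3 held in every setting. Psma3 (-0.50 ± 0.14) was lost without 30 °C 12 h replicate 3 (adjusted p = 0.0532). Psme2 (-0.73 ± 0.21) was lost without 30 °C 12 h replicate 4 (adjusted p = 0.0623). Psma7 (-0.42 ± 0.13) was lost in a fit of its own groups (adjusted p = 0.0627) and without 30 °C 12 h replicates 1 or 3 or 30 °C 24 h replicate 2 (adjusted p of 0.0572 to 0.0927). Psma5 (-0.76 ± 0.26) was lost with no filter or with a depth covariate (adjusted p of 0.0586 to 0.0718) and without 30 °C 12 h replicates 1, 2 or 4 or 30 °C 24 h replicates 1, 4 or 5 (adjusted p of 0.0507 to 0.104). Psmd1 (-0.62 ± 0.23) was lost with no filter, after upper-quartile rescaling, with a depth covariate or in a fit of its own groups (adjusted p of 0.0543 to 0.0974) and without 30 °C 12 h replicates 1, 2, 3 or 4 or 30 °C 24 h replicates 1, 3 or 5 (adjusted p of 0.0592 to 0.176). The count was 5 without 30 °C 12 h replicate 1, 3 or 4. In the 4 steps Psmb6 and Psmb7 and the activators Psme1, Psme3 and Psme4 gave no call, with differences between -0.67 and 0.57 (adjusted p of 0.0989 to 0.99).

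Other genes of the pathway were read from the same fit, without the other settings. Their values at 4 h at 30 °C therefore include the replicate 4 that stood apart. Of 5 tested assembly factors of the 20S barrel, Pomp, the maturation factor, was the 1 that rose, by 0.76 ± 0.18, 0.62 ± 0.18 and 0.67 ± 0.17 at 4, 12 and 24 h at 30 °C (adjusted p = 0.000882, 0.00498 and 0.00226) and by 0.52 ± 0.18 at 24 h at 22 °C (adjusted p = 0.0203). Of 9 tested proteasome-associated proteins 1 rose at 4 h, 4 at 12 h and 2 at 24 h at 22 °C, against 15.8%, 20.7% and 19% of all genes. At 30 °C 1 rose and 1 fell at 4 h (17.8% and 14.6% of all genes), 1 rose at 12 h (19.3%), and at 24 h 0 rose (15.3%) and 1 fell (14.4%), Usp14, a proteasome-bound deubiquitinase (-0.82 ± 0.22, adjusted p = 0.00505). Zfand5, which encodes a zinc-finger protein that binds the proteasome, rose by 1.62 ± 0.25 (limma adjusted p = 3.61e-06) at 12 h, and its change by 24 h was lower at 30 °C (interaction -1.44 ± 0.35, adjusted p = 0.00732). Txnl1, a thioredoxin-like protein of the 19S particle, was higher at 12 h, by 0.77 ± 0.17 at 22 °C and by 0.63 ± 0.17 at 30 °C (adjusted p = 0.000323 and 0.00272). Psmf1, a proteasome inhibitor in vitro, rose at 4 h by 0.74 ± 0.28 and 0.86 ± 0.26 (adjusted p = 0.0406 and 0.0103). Adrm1, a ubiquitin receptor of the 19S particle, fell at 4 h at 30 °C, with a difference of -2.01 ± 0.59 (limma adjusted p = 0.00797).

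Of 7 genes of the NRF1 axis, the transcription factor and the enzymes and partners that let it drive proteasome genes, 2 rose and 1 fell at 4 h at each temperature. Of all genes 15.8% rose and 13.6% fell at 22 °C, and 17.8% and 14.6% at 30 °C. The small Maf partners moved apart: Maff rose by 3.11 ± 0.71 and 3.10 ± 0.68, and Mafg changed by -1.62 ± 0.23 and -1.65 ± 0.22 at 22 °C and 30 °C (adjusted p = 0.0009, 0.000459, 7.91e-07 and 1.85e-07). Ddi2, the protease that releases NRF1, rose at 12 h at 22 °C by 1.07 ± 0.20 (limma adjusted p = 4.53e-05). Nfe2l1, which encodes NRF1, passed at no time. Its differences were -0.04 ± 0.28, -0.62 ± 0.26 and -0.29 ± 0.26 at 22 °C and 0.10 ± 0.26, -0.16 ± 0.26 and -0.23 ± 0.25 at 30 °C (adjusted p of 0.0574 to 0.938).

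Among the ubiquitin and E1 enzyme genes, Ubb, which encodes polyubiquitin, was higher at 12 h, by 1.55 ± 0.33 at 22 °C and by 2.19 ± 0.33 at 30 °C (adjusted p = 0.000276 and 1.81e-06). Among the genes of p97 and its partners, Ufd1, a p97 cofactor, was higher at 24 h, by 1.57 ± 0.31 at 22 °C and by 1.13 ± 0.29 at 30 °C (adjusted p = 0.000109 and 0.00294). In the class I peptide-loading list Tap1, the peptide transporter, rose at 4 h by 3.36 ± 0.25 and 3.30 ± 0.23, and Tapbp by 1.46 ± 0.23 and 1.82 ± 0.21 (adjusted p = 4.57e-13, 1.59e-13, 3.82e-06 and 1.91e-08).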

How the data were processed

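Liver RNA of 36 samples had been read by CEL-Seq2 adapted to bulk RNA, a 3′-end method in which each transcript carries a molecular barcode in its primer. The authors deposited a table of gene by sample values. The column used here, scaled reads per base, holds a signal per gene that the authors had scaled between libraries, and the deposited tpm column served as an alternative. Per the submitters' processing notes, reads passed through Trimmomatic, kallisto and sleuth, with versions not given. The sources used here do not say whether barcodes were collapsed. Steps of whole reads could not be recovered, so no count model was run, and the estimated reads per library are approximate. The gene names, gene positions and transcript ends used here followed GENCODE mouse release 21.

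The members and lists were chosen with earlier results of these data known. Genes whose mean signal reached 5 were tested on log2(signal + 1) in 1 limma fit of 36 samples and 8 groups (limma 3.58.1 in R 4.3.3, empirical Bayes with a mean trend), with Benjamini-Hochberg adjustment within each comparison at 0.05. The fit was tested on simulated data. Ratios and figures used Python 3.11.15, scipy 1.17.1 and matplotlib 3.10.9. Genes named in each comparison were the catalytic subunits, the activators, the called members with the smallest p or largest change, and those against the main direction; others named were chosen after their values were seen. Replicate numbers were taken from the sample titles and were not shown to pair samples. The 59 correlations of deviations between same-numbered samples ran from -0.125 to 0.106. For replicates 3 and 4 of the 30 °C 12 h livers, the title numbers differ from those in the sample descriptions. Pairing by the description numbers was not tested. Alternatives were a pseudocount of 0.5, no filter, the tpm column, upper-quartile and median-ratio rescaling, the groups of a comparison alone, a replicate block, a depth covariate and each library left out. Some genes of the pathway lists are not reported here.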

Additional observations from a re-analysis of the deposited data

Results flagged for a closer look

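In 26 of 312 groups of member values (8.33%) the highest or lowest library stood apart from the rest by Dixon's criterion, which chance meets in about 1 in 20 groups. The widest gaps were in replicate 4 of the 30 °C 4 h livers, where Psma2, an alpha-ring subunit, read 374.4 against 96.2 to 102.7 in the others, and Psmb11, the thymus beta subunit, read 40.2 against 1.56 to 5.16. Psmb3, a structural beta subunit, read 27.2 there against 49.7 to 50.6. The ATPase Psmc4 stood apart in 3 groups. It read 113.2 in 22 °C 12 h replicate 2 against 28.6 to 40.1, 124.1 in 22 °C 24 h replicate 4 against 42.3 to 49.9, and 52.9 in 30 °C 24 h replicate 3 against 28.8 to 33.3.

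At 0 h, 22 °C replicate 4 read high for Psma2 (80.0 against 39.9 to 45.0) and Psmb5 (66.6 against 40.7 to 44.1) and low for the ATPase Psmc3 (73.4 against 108.9 to 115.6). In 22 °C 0 h replicate 2 Psmb4 read 328 against 202.6 to 214.8, and in replicate 3 Psmd14 read 8.50 against 13.1 to 13.9. In 30 °C 0 h replicate 3 Psma6 read 23.3 against 8.18 to 11.2 and Psmd7 read 217.5 against 115.6 to 143.9. In replicate 4 of that group Psmd8 read 289.9 against 117.9 to 156.6.

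At 4 h, 22 °C replicate 4 read low for Psmc1 (18.6 against 21.5 to 22.0) and high for Psmd14 (18.8 against 15.3 to 15.9) and Psme4 (11.1 against 4.52 to 5.60). Psmd8 read 66.9 in 22 °C replicate 2 against 92.6 to 97.7, and Psme1 read 180.1 in 30 °C replicate 3 against 133.1 to 141. At 12 h Psmb3 read 23.2 in 22 °C replicate 1 against 52.4 to 64.3, and Psmd7 read 176.7 in 22 °C replicate 4 against 192.6 to 197.8. At 30 °C, replicate 3 read high for Psma2 (105.7 against 79.7 to 82.3) and Psmc2 (149 against 115.5 to 116.8), and replicate 1 for Psmd1 (97.3 against 75.1 to 78.1). At 24 h Psmd3 read 42.0 in 30 °C replicate 1 against 60.9 to 65.2, and Psme4 read 11.9 in 22 °C replicate 1 against 3.11 to 4.91.

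The change of Psmd7, a lid subunit, since 0 h differed between temperatures at 24 h by -1.30 ± 0.30 (limma adjusted p = 0.00552). Psmd7 rose at 22 °C, and its fall at 30 °C was a call lost in 13 of 18 other settings.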

How the results depend on the processing

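Of 118 calls on members, 60 held under every alternative, and no called difference changed sign. With each library left out in turn, 54 calls were lost in at least 1 of several fits per call. The other settings gave 1 fit per call. Among them calls were lost most often in fits of the compared groups alone (30), with no filter (25) and with a depth covariate (25), and least with a pseudocount of 0.5 (2). Fits of the groups alone use fewer samples, and with no filter more genes are tested. The cause of the losses was not tested for any setting. For 4 h at 30 °C the count of 14 became 8 with a depth covariate and 9 with the groups alone, and for 24 h at 30 °C the 10 became 6 with a depth covariate. From 4 to 12 h at 22 °C the 8 became 5 with the groups alone, and from 12 to 24 h the 2 became 1 with no filter or the groups alone. From 4 to 12 h at 30 °C the 8 became 14 after upper-quartile rescaling. The 9 members lower at 30 °C at 24 h became 5 with no filter or the groups alone. The 24 h interaction count of 1 became 2 in the tpm column, with a depth covariate or with the replicate block. With a library left out, the counts against 0 h at 22 °C ran from 9 to 11 at 4 h, where all libraries gave 12. They ran from 12 to 18 at 12 h (16 with all) and from 13 to 15 at 24 h (14 with all). The 30 °C counts against 0 h ran from 11 to 14, 11 to 15 and 8 to 14, where all libraries gave 14, 16 and 10. Between later times the counts ran from 5 to 8 for 4 to 12 h and from 1 to 4 for 12 to 24 h at 22 °C. At 30 °C they ran from 5 to 9 and from 5 to 7, and for the 24 h temperature comparison and interaction from 4 to 10 and from 1 to 3.

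The replicate block lost 5 of the 118 calls and added 5 others, and it raised the 24 h interaction count from 1 to 2. Replicate numbers are not shown to pair samples: of the 59 correlations 1 was over 0.1. The block and the correlations used the title numbers, which for some samples differ from the numbers in the sample descriptions.

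Signs turned in these uncalled differences. With a depth covariate Psmb6 became 0.04 at 4 h at 22 °C and 0.11 at 12 h at 30 °C, and Psme4 became -0.07 at 4 h at 22 °C and -0.20 at 4 h at 30 °C. Upper-quartile rescaling gave 0.08 for Psmb6 at 12 h at 30 °C and -0.01 and -0.03 for Psme4 at 4 h at 22 °C and 30 °C. With a library left out Psmb6 ran from -0.02 to 0.22 at 12 h at 22 °C and from -0.11 to 0.01 at 12 h at 30 °C. Psme4 ran from -0.17 to 0.26 at 4 h and from -0.39 to 0.12 at 12 h at 22 °C, and from -0.12 to 0.33 at 4 h at 30 °C. Psme3 ran from -0.46 to 0.14 at 4 h at 22 °C, and from -0.20 to 0.73 at 12 h and from -0.03 to 0.42 at 24 h at 30 °C.

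Depth limits the low members: 3 reads were worth up to 5.05 units of signal, near the level of Psme4 and Psmb11. Some members with calls also had 0 h libraries below 5.05. At 30 °C these were Psmd10 (3.82 and 4.68), Psmb7 (4.69) and Psmc5 (4.82), and at 22 °C Psma6 (1.31) and Psmd10 (0).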

Other observations

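Of the 3 immunoproteasome subunits, which lie outside the constitutive set, 2 fell from 12 to 24 h at 22 °C (Psmb9 and Psmb10, against 6.6% of all genes) and 3 at 30 °C (9.52%). Psmb10, the inducible trypsin-like subunit, differed from 0 h at 24 h by 1.69 ± 0.25 (limma adjusted p = 1.28e-06) at 22 °C and by -0.60 ± 0.23 (limma adjusted p = 0.0506) at 30 °C, and its change was lower at 30 °C (interaction -2.28 ± 0.34, adjusted p = 4.79e-05). Psmb8, the inducible chymotrypsin-like subunit, gave a 24 h interaction of -1.23 ± 0.35 (limma adjusted p = 0.0237). Of the class I peptide-loading genes, Tap1 and Tapbp were lower at 30 °C than at 22 °C at 24 h, with differences of -0.77 ± 0.22 (limma adjusted p = 0.0132) and -0.74 ± 0.20 (limma adjusted p = 0.00816).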
